A study of Mus musculus with 23 samples.

Results

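The comparison was between the proximal small intestine of ad libitum fed male mice 24 h after doxorubicin and that of ad libitum fed male mice 6 h after the same injection. It rested on 4 of the 23 RNA-seq libraries of the series. At 24 h there was 1 library from a wild-type mouse and 1 from a Ddit4-/- (Ddit4 knockout) mouse, and at 6 h likewise 1 wild-type and 1 knockout library. The difference was taken within each genotype, so the 2 genotypes stood in for replicates. Doxorubicin was given once into the peritoneum at 20 mg/kg, and no fast preceded it in these 4 libraries. The strain, the age, how the knockout was made and whether tissue was pooled were not given in the sources used here. The series holds no untreated library labelled 24 h. The 18 h between the harvests may also separate 2 times of day, so time since the drug and time of day cannot be told apart.

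The study asked how a 24 h fast before the drug protects the small intestine from genotoxic injury. Its other libraries came from untreated mice, from mice harvested 2 or 12 h after the drug, and from prefasted mice, which were fasted before the injection and refed after it. Polyadenylated RNA of the whole intestinal wall was sequenced without strand information. Values are normalized reads per gene, not divided by gene length, so levels were compared between libraries and not between genes.

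Doxorubicin is an anthracycline that poisons topoisomerase II and leaves double-strand breaks in DNA. In the small intestine the dividing cells of the crypts are the most exposed: damage activates p53, which induces cell cycle inhibitors and death genes, and proliferation stops before surviving crypt cells rebuild the epithelium. The villus above the crypt is lined by absorptive enterocytes, which carry the digestive, lipid-handling and detoxifying enzymes, and the wall also holds immune, vascular and smooth muscle cells. Ddit4 encodes REDD1, a stress-induced inhibitor of the growth kinase complex mTORC1.

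The 24 h libraries held 15036160 reads in wild type and 23007250 reads in the knockout, and the 6 h libraries held 15183204 reads in wild type and 22460902 reads in the knockout. Over the series the lowest library held 11418115 reads and the highest held 23428519 reads. A single read was worth 1.08 normalized reads (24 h wild type), 0.705 (24 h knockout), 1.12 (6 h wild type) and 0.814 (6 h knockout), which sets the resolution at low levels. Ddit4 itself read 414 normalized reads at 24 h and 296 at 6 h in wild type, and 11.3 at 24 h and 0 at 6 h in the knockout, so the genotype labels held in all 4 libraries. Enterocyte markers were abundant in every library: Sis, the sucrase-isomaltase of the brush border, had 60790 and 51970 normalized reads at 24 h (wild type and knockout), against 74910 and 98120 at 6 h. Below, values are given as wild type and then knockout at 24 h, followed by the same at 6 h.

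No gene passed limma's test in either direction among 11939 genes tested (0% higher and 0% lower, Benjamini-Hochberg adjusted p under 0.05). The smallest adjusted p was 0.289, and 850 genes had an unadjusted limma p under 0.05, of which 406 were higher and 444 lower, where 597 would be met by chance. edgeR's quasi-likelihood test on the recovered read counts called 0 genes, and DESeq2 on the same counts called 15 higher (0.126%) and 31 lower (0.26%). In all 46 DESeq2 calls both 24 h libraries lay on the same side of both 6 h libraries. The calls were made on those same libraries, so the separation adds no support to them. The tools disagree, so the genes below are given by their values, and no gene is said to have risen or fallen. Differences are log2(normalized reads + 1) at 24 h minus 6 h with limma's standard error (SE), which understates changes of low genes. The limma adjusted p of every gene named lay between 0.289 and 0.997.

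The 2 genotypes shared only part of their change. A gene was at least 2-fold higher at 24 h in both genotypes in 212 cases (1.78% of those tested) and at least 2-fold lower in both in 87 cases (0.729%), while 132 genes differed at least 2-fold in opposite directions. With quantile normalization the counts were 182 higher and 172 lower. The direction was the same in both genotypes for 59.2% of genes, and Pearson's r between the changes was 0.23 across genes, which are not independent replicates. Many of the 2-fold genes were low: 150 of the 212 and 55 of the 87 averaged under 50 normalized reads over the 4 libraries. Both 24 h libraries exceeded both 6 h libraries for 21.8% of all genes, and both fell below them for 20.7%, which is the background for the counts of members that follow. The median difference over all genes was 0.02.

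**Figure D1:**
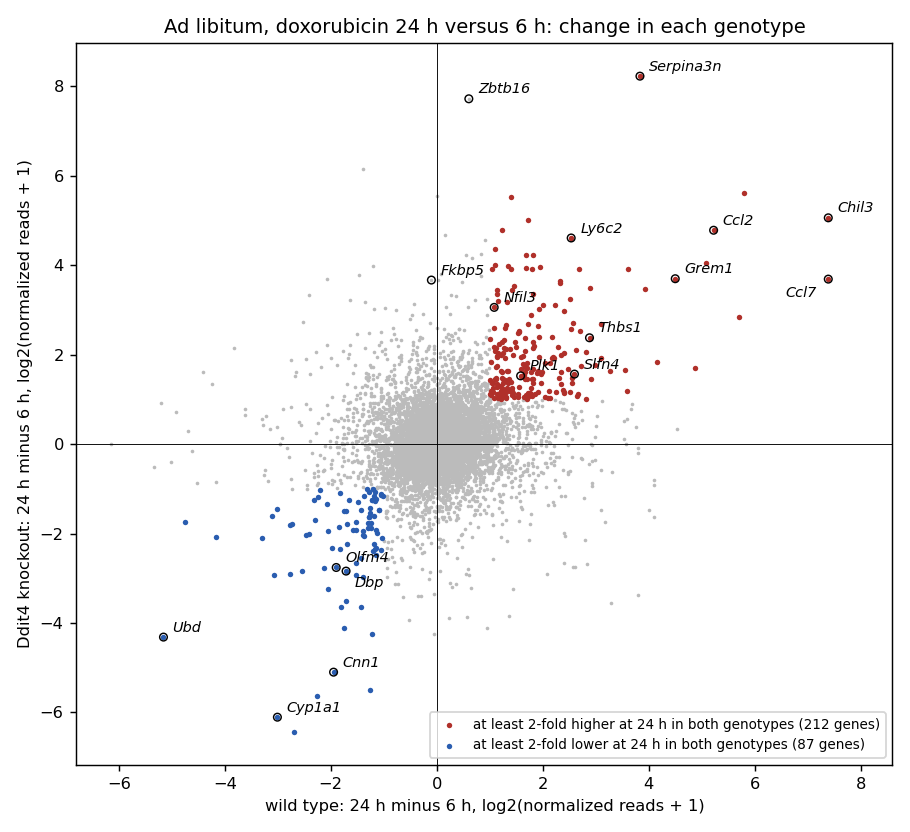
Each point is 1 of the 11939 genes, with the wild-type 24 h minus 6 h difference on the horizontal axis and the knockout difference on the vertical axis, both in log2(normalized reads + 1). Red points are the 212 genes at least 2-fold higher and blue points the 87 at least 2-fold lower in both genotypes, and Zbtb16 and Fkbp5 lie high in the knockout direction alone.

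The ad libitum libraries at 12 h were set beside these changes. Of the 212 genes at least 2-fold higher, the 12 h mean lay between the 6 h and 24 h means for 133, below the 6 h mean for 58 and above the 24 h mean for 21. Of the 87 lower genes, the 12 h mean lay between for 56, above the 6 h mean for 15 and below the 24 h mean for 16. Levels at 12 h were not tested. The genes were selected on their 6 h and 24 h values, which by itself favours a 12 h mean between them. The counts therefore do not time the changes. For some genes the 2 h wild-type library lay near or beyond the 24 h wild-type level, with values given below. A difference between 24 h and 6 h is therefore not by itself a late change.

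**Figure D2:**
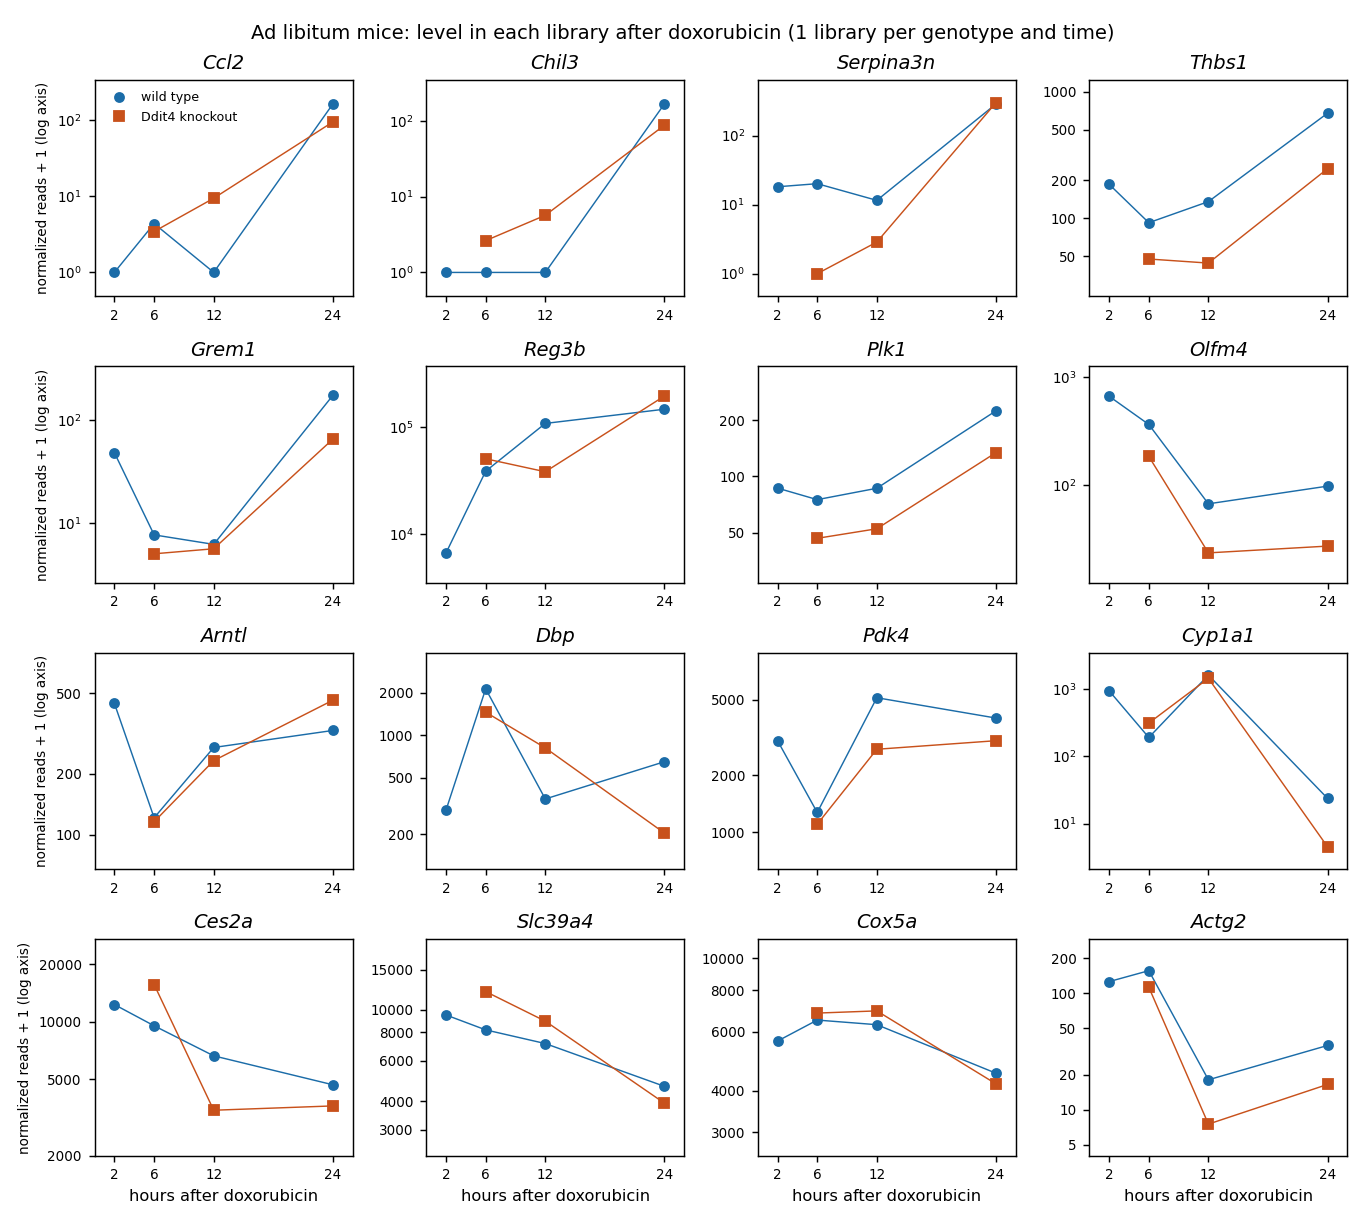
Normalized reads + 1 on a log axis against hours after doxorubicin for 16 genes in ad libitum mice, with circles for wild type (2, 6, 12 and 24 h) and squares for the knockout (6, 12 and 24 h), 1 library per point. Chil3, Ccl2 and Grem1 stand high at 24 h alone among 6, 12 and 24 h, Arntl and Dbp run in opposite directions between 6 and 24 h, and Cyp1a1 is highest at 12 h.

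The p53 programme stood at a similar level at both times. Across 36 p53 targets tested of 37 listed, the median difference was 0.08, with 10 members higher and 4 lower without overlap, against 21.8% and 20.7% of all genes, and 2 at least 2-fold higher in both genotypes. Cdkn1a, the p21 inhibitor of cyclin-dependent kinases, had 6995 and 5363 normalized reads at 24 h, against 7425 and 6189 at 6 h, a difference of -0.15 ± 0.19 (SE) that turned to 0.0297 with quantile normalization. The 4 libraries of Cdkn1a overlap, and the 2 h wild-type library was above them at 10390.

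Mdm2, the ubiquitin ligase that limits p53, read 1127 and 951 at 24 h, against 1402 and 1258 at 6 h, a difference of -0.36 ± 0.22 without overlap. Ccng1, a cyclin induced by p53, differed by 0.02 ± 0.15, and Gdf15, a stress-induced cytokine, by -1.06 ± 0.77.

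Among 24 apoptosis genes tested of 27, the median difference was 0.06, and 7 lay above and 7 below without overlap. Bok, a pro-apoptotic member of the BCL2 family, had 1275 and 1651 normalized reads at 24 h, against 583 and 491 at 6 h, a difference of 1.44 ± 0.49, with both 24 h libraries higher. Pmaip1, which encodes the BH3-only protein NOXA, had 5650 and 5265 at 24 h, against 4686 and 1267 at 6 h. Its difference of 1.16 ± 0.56 was 0.27 in wild type and 2.06 in the knockout, whose 6 h library was the low one. The 2 h wild-type library had 1453 for Bok and 6320 for Pmaip1, each above the 24 h wild-type level. Bbc3 (PUMA) differed by 0.71 ± 0.62 and Bax by -0.16 ± 0.30.

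Of 29 G2/M genes tested of 30, 9 lay above without overlap and 0 below, 4 were at least 2-fold higher in both genotypes, and the median difference was 0.67, with 0.72 in wild type and 0.56 in the knockout. The median was 0.11 without the 24 h wild-type library, 0.30 without the 6 h knockout, 1.04 without the 24 h knockout and 1.09 without the 6 h wild type. Plk1, the polo-like kinase of mitotic entry, had 224 and 133 normalized reads at 24 h, against 74.1 and 45.6 at 6 h, a difference of 1.56 ± 0.55. Cdk1, the mitotic cyclin-dependent kinase, had 132 and 70.5 at 24 h, against 29.2 and 34.2 at 6 h, a difference of 1.58 ± 0.74. Both genes had every 24 h library above every 6 h library.

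Its partner cyclin B1, from Ccnb1, had 73.6 and 20.4 normalized reads at 24 h, against 22.5 and 4.07 at 6 h, so the knockout at 24 h lay just below the wild type at 6 h although both genotypes differed the same way. The kinesins Kif20a and Cenpe differed by 1.64 ± 0.93 and 1.36 ± 0.76. Mki67 and Top2a, also members of the G2/M list, differed by 0.12 ± 0.55 and -0.09 ± 0.53. The S-phase and licensing list had a median of 0.23 over 30 genes, with 5 above and 4 below. DNA repair and checkpoint genes had a median of 0.12 over 31 genes, with 8 above and 2 below.

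Promoters of mitotic genes often carry a CHR element together with CCAAT boxes, which bind the DREAM and B-MYB complexes and NF-Y. The 250 bases before the RefSeq start of Cdk1 (build GRCm38.p6, chr10:69352913-69353162, minus strand) are shown because Cdk1 holds several of both; capitals mark TTTGAA on either strand and CCAAT on either strand (here read as ATTGG).
Cdk1: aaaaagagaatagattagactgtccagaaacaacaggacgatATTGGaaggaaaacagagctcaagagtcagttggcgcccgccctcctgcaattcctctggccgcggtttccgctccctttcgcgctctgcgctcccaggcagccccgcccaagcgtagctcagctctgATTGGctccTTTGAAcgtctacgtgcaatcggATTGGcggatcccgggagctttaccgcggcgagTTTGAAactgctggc
Of 25 G2/M genes with a promoter in the table, 22 held CCAAT and 9 held TTTGAA in these 250 bases, against 33.8% and 16% of all 32851 promoters. A match describes letters, not a bound site, and the 2 motifs do not overlap in Cdk1.

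Crypt stem cell genes had a median of 0.32 over 21 tested of 23, with 6 above and 2 below. Olfm4, the crypt base marker, had 96.3 and 26.1 normalized reads at 24 h, against 362 and 182 at 6 h, a difference of -2.33 ± 0.63, and at 12 h it was already at 65.7 and 22.4. The groups of Olfm4 did not overlap. Lgr5, the receptor that marks cycling stem cells, was near the limit of detection with 16.2 and 14.1 at 24 h, against 2.25 and 5.70 at 6 h, and Ascl2, a stem cell transcription factor, differed by 0.25 ± 1.01. In bulk RNA, fewer cells of a type and less RNA per cell cannot be told apart, here and below.

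Several chemokine and monocyte genes, picked after their values were seen, showed some of the largest differences in size. Chil3, a chitinase-like protein of myeloid cells, had 167 and 86.7 normalized reads at 24 h, against 0 and 1.63 at 6 h. Ccl2, the main ligand of the monocyte receptor CCR2, had 162 and 93.8 at 24 h, against 3.37 and 2.44 at 6 h. The neighbouring chemokine gene Ccl7 had 167 and 107 at 24 h, against 0 and 7.33 at 6 h. In all 3 genes the 24 h libraries stood far above, and at 12 h the highest value was 11.2.

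Ly6c2, a surface antigen of inflammatory monocytes, had 168 and 103 normalized reads at 24 h, against 28.1 and 3.26 at 6 h, a difference of 3.57 ± 1.28. Ifi204, an interferon-inducible DNA sensor family gene, differed by 2.99 ± 0.90 and Ms4a6d, a macrophage membrane gene, by 2.73 ± 1.03. Both 24 h libraries were above both 6 h libraries for each of these. The list of macrophage and dendritic cell markers as a whole had a median of 0.40 over 13 tested of 17, with 3 above, 1 below and 1 at least 2-fold in both genotypes. The median was 0.01 without the 24 h wild-type library and 0.79 without the 24 h knockout. Cd68, a lysosomal glycoprotein of macrophages, had 68.2 and 61.3 at 24 h, against 35.9 and 13.8 at 6 h. Summed over the list, levels were 1938 and 1390 at 24 h, against 2020 and 1038 at 6 h, so the groups overlapped. Neutrophil and mast cell markers were mostly too low to test, with 3 of 18 tested.

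Serpina3n, a secreted protease inhibitor of the acute phase, had 286 and 299 normalized reads at 24 h, against 19.1 and 0 at 6 h. Haptoglobin, from Hp, had 147 and 232 at 24 h, against 3.37 and 13.03 at 6 h. Lcn2, which binds bacterial siderophores, had 67.1 and 82.5 at 24 h, against 24.7 and 0.814 at 6 h. None of the 3 overlapped.

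Reg3b, an abundant antibacterial lectin, had 147100 and 195500 normalized reads at 24 h, against 38670 and 50540 at 6 h, a difference of 1.94 ± 0.74 with 1.93 in wild type and 1.95 in the knockout. Its relative Reg3g differed by 1.49 in wild type and -0.01 in the knockout. Reg3a, of the same cluster, ran the other way, with 2597 and 1572 at 24 h, against 5016 and 4583 at 6 h. The mucosal defence list had a median of 0.30 over 11 tested of 18, but 1.41 in wild type and -0.01 in the knockout. Inflammatory cytokine and NF-kB genes had a median of 0.21 over 15 tested of 24, with 4 above and 1 below.

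The Schlafen family, growth-regulatory genes induced by interferon and in immune cells, had a median of 1.34 over 6 tested of 7, with 5 above without overlap, 0 below and 2 at least 2-fold higher in both genotypes. Slfn4 had 345 and 204 normalized reads at 24 h, against 56.1 and 68.4 at 6 h, a difference of 2.08 ± 0.81 that DESeq2 called (adjusted p = 0.0297). Slfn5 differed by 1.71 ± 0.58. The interferon-stimulated list reached a median of 0.27 over 34 genes, with 0.50 in wild type and 0.02 in the knockout, and 8 above and 2 below, and the median was 0.03 without the 6 h wild-type library.

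H2-Ab1, a chain of MHC class II, had 1671 and 12820 normalized reads at 24 h, against 5363 and 16450 at 6 h, and Cd74, the invariant chain, had 2446 and 37070 at 24 h, against 8031 and 33850 at 6 h. The MHC class II list had a median of -0.94 over 9 tested of 10, with -1.79 in wild type and 0.04 in the knockout, and of -0.45 without the 24 h wild-type library. Immunoproteasome and MHC class I genes had a median of -0.27 over 18 tested, with 9 below and 0 above. Ubd, the ubiquitin-like protein FAT10 induced by cytokines, had 8.66 and 7.76 at 24 h, against 344 and 173 at 6 h, a difference of -4.74 ± 1.06 that DESeq2 called (adjusted p = 0.0106), and the 2 h level in wild type was 24.7. B and plasma cell markers had a median of -0.80 over 8 tested of 14, summing to 3615 and 4798 at 24 h, against 3409 and 5271 at 6 h, and T cell markers a median of -0.08 over 9 tested of 15.

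Thbs1, the matricellular protein thrombospondin 1, had 678 and 245 normalized reads at 24 h, against 90.9 and 46.4 at 6 h, a difference of 2.63 ± 0.51 with the smallest DESeq2 adjusted p of the 24 h versus 6 h comparison (0.000419). Grem1, a BMP antagonist secreted by mesenchyme around the crypt base, had 174 and 64.9 at 24 h, against 6.74 and 4.07 at 6 h, a difference of 4.10 ± 0.96 (DESeq2 adjusted p = 0.00802). In both genes the 12 h libraries lay near the 6 h level, at 134 and 43.0 for Thbs1 and at 5.26 and 4.67 for Grem1.

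Endothelial and lymphatic markers had a median of 1.08 over 7 tested of 12, with 6 above without overlap and 2 at least 2-fold in both genotypes. They summed to 477 and 284 normalized reads at 24 h, against 178 and 182 at 6 h. Vwf, the clotting factor of endothelium, had 28.1 and 23.3 at 24 h, against 0 and 6.51 at 6 h. Fibroblast and stroma markers had a median of 0.51 over 12 tested, with 4 above and 1 below, a median of 0.23 without the 6 h knockout library, and their sums overlapped at 10910 and 9615 at 24 h, against 11530 and 14940 at 6 h.

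Smooth muscle markers had a median of -1.26 over 10 tested of 11, with -0.46 in wild type and -1.92 in the knockout, 5 below without overlap, 0 above and 4 at least 2-fold lower in both genotypes. The median was -0.51 without the 24 h knockout library and -1.88 without the 24 h wild type. Actg2, enteric smooth muscle actin, had 34.6 and 15.5 normalized reads at 24 h, against 155 and 111 at 6 h, a difference of -2.45 ± 0.64 (DESeq2 adjusted p = 0.0352). Myl9, the regulatory myosin light chain, had 63.9 and 24.7 at 24 h, against 268 and 242 at 6 h, a difference of -2.65 ± 0.74 (DESeq2 adjusted p = 0.0305), and Cnn1, calponin, differed by -3.52 ± 0.93. The summed list was 4044 and 2602 at 24 h, against 3771 and 5246 at 6 h, so its sum did not separate the times. Red blood cell markers had a median of -1.78 over 4 tested of 7, and Hba-a1, an alpha globin, had 67.1 and 76.9 at 24 h, against 322 and 126 at 6 h. How far the muscle, vessel and blood content of each tissue piece moved other values was not tested.

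Clock genes differed between the harvests. The clock runs as a loop in which BMAL1, from Arntl, and CLOCK drive the Per genes and the PAR bZIP factors such as Dbp, which activate D-box genes that NFIL3 represses. Arntl had 326 and 460 normalized reads at 24 h, against 120 and 115 at 6 h, a difference of 1.71 ± 0.44 (DESeq2 adjusted p = 0.0296). Nfil3 had 144 and 475 at 24 h, against 67.4 and 56.2 at 6 h, a difference of 2.07 ± 0.56 (DESeq2 adjusted p = 0.0243). Neither gene overlapped between the times, and time of day cannot be told apart from time since the drug here.

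Dbp had 649 and 202 normalized reads at 24 h, against 2129 and 1456 at 6 h, a difference of -2.28 ± 1.09. Usp2, a clock-controlled deubiquitinase, had 1164 and 428 at 24 h, against 2317 and 1923 at 6 h, a difference of -1.58 ± 0.42. Among the period genes, Per3 had 143 and 40.9 at 24 h, against 327 and 195 at 6 h, Per2 differed by -0.84 ± 0.34 and Per1 by -0.13 ± 0.38. Of the 15 tested members of the Per and PAR bZIP list, 7 lay below without overlap, 1 above, and the median was -0.65. Of 7 tested members of the Arntl-phase list, 4 lay above and 0 below, and the median was 0.40. At 2 h in wild type, Arntl had 443 normalized reads, Dbp 294 and Usp2 1150. Each was nearer the 24 h than the 6 h wild-type level.

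The promoters of Per3 and Nfil3 are shown because these 2 genes lay on opposite sides. Each stretch is the 250 bases before the RefSeq start (GRCm38.p6), Per3 at chr4:151044666-151044915 and Nfil3 at chr13:52981040-52981289, both on the minus strand. Capitals mark the D-box letters TTATGTAA or TTACGTAA in Per3, and in Nfil3 the half-site AGGTCA (here TGACCT on the other strand) that ROR and REV-ERB receptors recognize.
Per3: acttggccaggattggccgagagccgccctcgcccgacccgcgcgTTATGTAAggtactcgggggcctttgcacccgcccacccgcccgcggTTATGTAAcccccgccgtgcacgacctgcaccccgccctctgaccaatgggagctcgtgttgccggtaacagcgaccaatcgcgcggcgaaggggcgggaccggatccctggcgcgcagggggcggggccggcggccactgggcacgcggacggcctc
Nfil3: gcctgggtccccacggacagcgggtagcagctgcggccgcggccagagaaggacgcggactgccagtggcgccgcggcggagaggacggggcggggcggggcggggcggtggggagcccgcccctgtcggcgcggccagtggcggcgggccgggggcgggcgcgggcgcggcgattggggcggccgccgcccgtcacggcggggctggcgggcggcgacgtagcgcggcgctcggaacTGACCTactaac
Per3 was the sole member of its list with a D-box in this window, of 12 with a promoter in the table, and 0.931% of all promoters held it. The half-site was in 2 of the 6 Arntl-phase promoters, against 14% of all promoters. The D-boxes of Per3 begin 205 and 158 bases before the start, and the half-site of Nfil3 begins 12 bases before it.

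Pdk4, which restrains pyruvate oxidation, had 4004 and 3040 normalized reads at 24 h, against 1269 and 1100 at 6 h, a difference of 1.56 ± 0.68. Its 2 h wild-type level was 3043. The PPAR-alpha and fat oxidation list had a median of 0.21 over 26 genes, with 9 above, 5 below and 3 at least 2-fold higher in both genotypes.

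Among 20 glucocorticoid-responsive genes the median was 0.32, with 0.50 in wild type and 1.0 in the knockout, and 6 lay above and 1 below. The 6 h knockout library stood apart here. Fkbp5, a glucocorticoid-induced chaperone, had 4892 and 4018 normalized reads at 24 h, against 5247 and 315 at 6 h, and Zbtb16, a transcription factor induced by the same receptor, had 327 and 382 at 24 h, against 214 and 0.814 at 6 h. Without that library the Fkbp5 difference was -0.23 in place of 1.78. Deptor, an inhibitor of mTOR kinase, had 812 and 683 at 24 h, against 304 and 286 at 6 h, a difference of 1.33 ± 0.39. The 2 h wild-type library had 995 for Deptor, above the 24 h wild-type level. The list of mTORC1 brakes had a median of 0.28 over 15 genes, with 6 above and 1 below.

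Cyp1a1, the cytochrome P450 induced through the aryl hydrocarbon receptor, had 22.7 and 3.53 normalized reads at 24 h, against 190 and 311 at 6 h, a difference of -4.56 ± 1.06 (DESeq2 adjusted p = 0.0199). It had stood at 1610 and 1442 at 12 h and at 943 in wild type at 2 h, so the levels did not follow the order of the times. Of 7 aryl hydrocarbon receptor genes tested of 10, 4 lay below and 0 above, with a median of -0.49, which was -0.12 without the 24 h knockout library. The 250 bases before the Cyp1a1 start (GRCm38.p6, chr9:57697363-57697612, plus strand) are shown with the core GCGTG of the xenobiotic response element in capitals, searched on both strands.
Cyp1a1: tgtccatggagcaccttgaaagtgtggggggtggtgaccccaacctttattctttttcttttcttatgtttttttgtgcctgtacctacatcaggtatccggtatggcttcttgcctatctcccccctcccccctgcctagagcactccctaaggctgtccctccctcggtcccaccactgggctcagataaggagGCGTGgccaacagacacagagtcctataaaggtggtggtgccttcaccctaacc
The core was found once here, in 3 of 6 promoters of the list, and in 28.2% of all promoters.

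Glutathione and NRF2 genes had, of the 63 lists, the largest count of 2-fold lower members, 5 of 27 tested, against 0.729% of all genes. The share was larger among smooth muscle markers, 4 of 10 tested, and red blood cell markers, 2 of 4. In the glutathione and NRF2 list 18 lay below without overlap and 2 above, with a median of -0.43. DESeq2 called 2 members of this list, so not all the genes named next belong to it. Gsta1, a glutathione transferase, had 991 and 489 normalized reads at 24 h, against 2842 and 1865 at 6 h, a difference of -1.72 ± 0.38 (DESeq2 adjusted p = 0.00986). Gsta3 had 53.03 and 32.4 at 24 h, against 144 and 195 at 6 h, a difference of -1.99 ± 0.56 (DESeq2 adjusted p = 0.0297). Ftl1, a ferritin light chain, differed by -0.65 ± 0.15 (DESeq2 adjusted p = 0.017), and Me1, a malic enzyme that supplies NADPH, by -1.78 ± 0.44 (DESeq2 adjusted p = 0.0297).

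The xenobiotic metabolism list had 15 of 30 members below without overlap, 1 above, and a median of -0.42, with -0.14 in wild type and -0.65 in the knockout. DESeq2 called 2 members of this list, so not all the genes named next belong to it. Ces2a, a carboxylesterase of the enterocyte, had 4685 and 3633 normalized reads at 24 h, against 9527 and 15650 at 6 h, a difference of -1.57 ± 0.35 (DESeq2 adjusted p = 0.00429). Cyp3a44, a drug-metabolizing cytochrome, had 20.6 and 37.4 at 24 h, against 146 and 133 at 6 h, a difference of -2.29 ± 0.49 (DESeq2 adjusted p = 0.00802). The glucuronosyltransferase Ugt2b5, the cytochrome Cyp4f16 and the carboxylesterase Ces2c differed by -1.62 ± 0.47, -1.53 ± 0.36 and -0.89 ± 0.22, and DESeq2 called each of them. Gsta, Ces2, Cyp3a, Ugt2b, Reg3, Slfn and globin genes have near-identical relatives, so their reads may be split between members.

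Slc39a4, the zinc importer ZIP4, had 4642 and 3920 normalized reads at 24 h, against 8184 and 12020 at 6 h, a difference of -1.22 ± 0.23 (DESeq2 adjusted p = 0.0037). Maoa, monoamine oxidase A, had 6345 and 5660 at 24 h, against 10330 and 15980 at 6 h, a difference of -1.10 ± 0.24 (DESeq2 adjusted p = 0.0106). Ckb, the brain-type creatine kinase, had 7110 and 5223 at 24 h, against 11340 and 16700 at 6 h, and 12250 and 19450 at 12 h. All 3 were lower in both 24 h libraries than in either 6 h library.

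The chemokine gene Ccl25, which draws lymphocytes to the small intestine, had 6532 and 5393 normalized reads at 24 h, against 10040 and 10540 at 6 h, a difference of -0.79 ± 0.17 (DESeq2 adjusted p = 0.00975). Car4, a brush border carbonic anhydrase, differed by -1.82 ± 0.45 (DESeq2 adjusted p = 0.0243). Of 30 enterocyte genes, 15 lay below without overlap and 1 above, with a median of -0.27. Slc2a2, the basolateral glucose transporter, had 18440 and 10430 at 24 h, against 19670 and 22630 at 6 h, and Alpi, intestinal alkaline phosphatase, had 74800 and 49180 at 24 h, against 50820 and 48840 at 6 h. Genes of sugar metabolism had a median of -0.31 over 20 tested, with 15 below and 2 above.

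Respiratory chain genes lay lower by a small amount: 24 of 25 oxidative phosphorylation genes lay below without overlap and 0 above, with a median of -0.40, which was -0.40 in wild type and -0.37 in the knockout. None reached 2-fold in both genotypes. Cox5a, a subunit of cytochrome c oxidase, had 4511 and 4191 normalized reads at 24 h, against 6513 and 6835 at 6 h, a difference of -0.62 ± 0.21. Its companion subunit Cox7a2 differed by -0.58 ± 0.21 and cytochrome c, from Cycs, by -1.01 ± 0.45. Of 25 proteasome genes, 22 lay below and 0 above, with a median of -0.27, and Psmb7, a catalytic subunit, had 552 and 546 at 24 h, against 907 and 753 at 6 h.

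Secretory lineages showed no common direction. Goblet cell genes had a median of 0.30 over 13 tested, with 0.60 in wild type and 0.00 in the knockout, and Muc2, the gel-forming mucin, had 19050 and 13520 normalized reads at 24 h, against 10170 and 13530 at 6 h. Paneth cell genes had a median of 0.22 over 17 tested, with 3 above and 1 below, and Lyz1, their lysozyme, differed by 0.02 ± 0.48. Among genes outside the lists, Ivns1abp, an actin-binding kelch protein gene, had 3744 and 4843 at 24 h, against 1896 and 1878 at 6 h (1.17 ± 0.25, DESeq2 adjusted p = 0.00802). Jmjd1c, of the jumonji demethylase family, had 1412 and 1568 at 24 h, against 771 and 767 at 6 h (0.95 ± 0.20, DESeq2 adjusted p = 0.00996). At 2 h in wild type, Ivns1abp had 3523 and Jmjd1c 1292, each near the 24 h wild-type level.

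**Figure D3:**
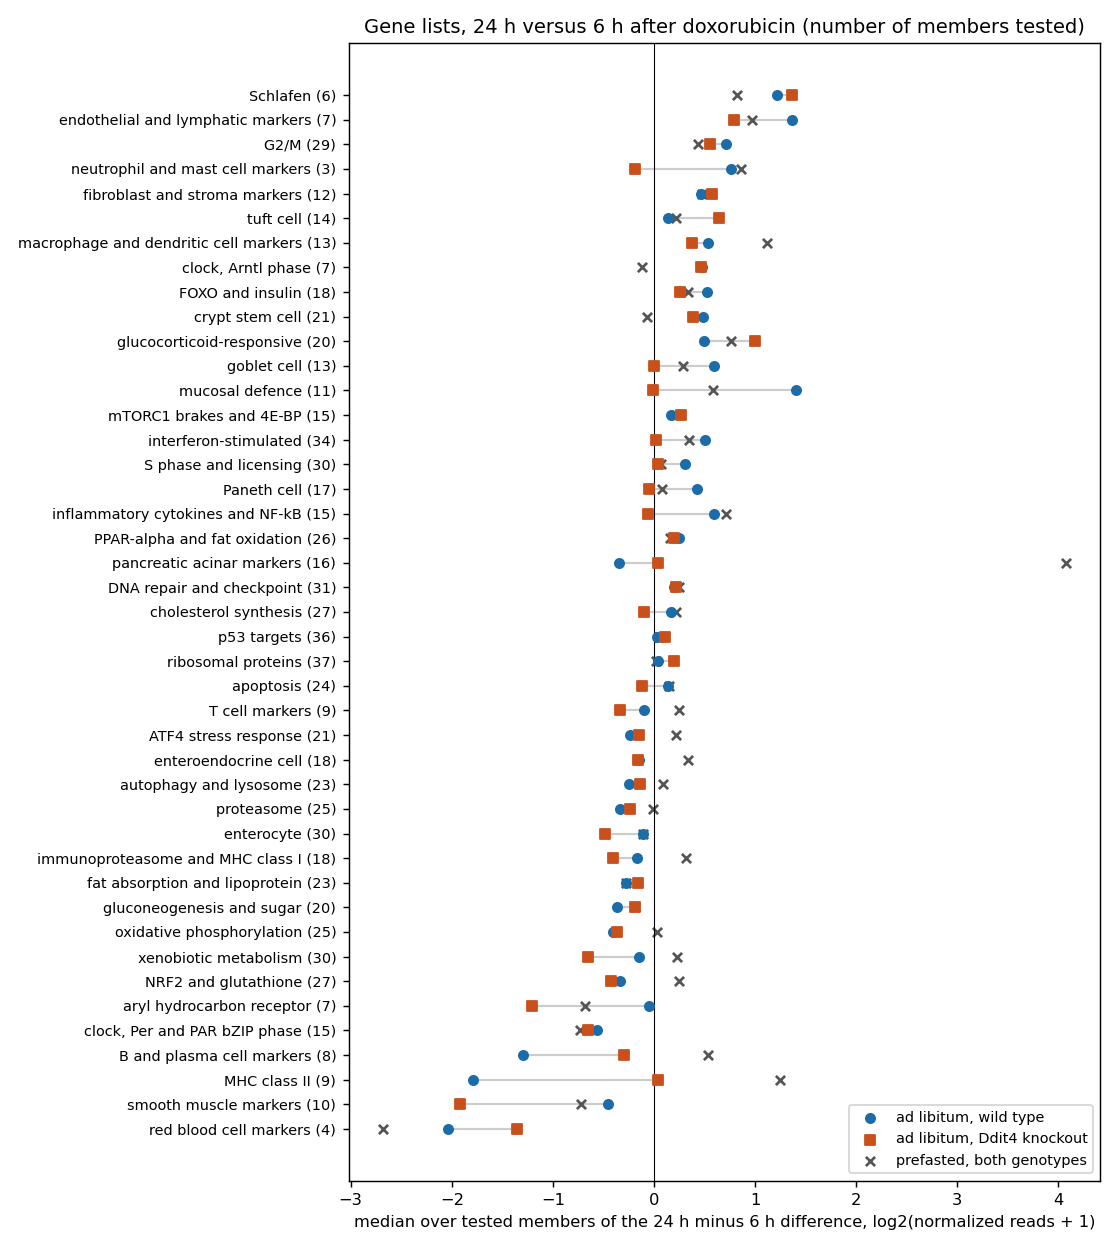
Median 24 h minus 6 h difference in log2(normalized reads + 1) over the tested members of 43 gene lists, with circles for ad libitum wild type, squares for ad libitum knockout and crosses for the prefasted mice of both genotypes. Schlafen, endothelial and G2/M genes lie to the right and smooth muscle and red blood cell genes to the left in both ad libitum genotypes, while the MHC class II medians are -1.79 in wild type and 0.04 in the knockout.

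The same interval in prefasted mice shared part of these changes, while several lists had other medians. It was measured in 4 other libraries, of which both wild-type ones carry a title naming them untreated and a treatment field naming doxorubicin. The treatment field was followed. The changes in ad libitum and prefasted mice had a Pearson's r of 0.25 across genes, against 0.23 between the ad libitum genotypes. Of the 212 genes at least 2-fold higher in ad libitum mice, 115 were higher in both prefasted pairs and 18 lower in both. Of the 87 lower genes, 41 were lower in both prefasted pairs and 11 higher in both. Among all genes tested, 27.8% were higher and 25.1% lower in both prefasted pairs. Limma called 0 genes in the prefasted comparison itself (0%), with 1382 genes at an unadjusted p under 0.05, and edgeR called 0 and DESeq2 199.

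For the difference between the 2 feeding states in their 24 h minus 6 h change, limma called 1 gene (0.00838%) and DESeq2 19 (0.159%). That gene was Hsd17b6, a hydroxysteroid dehydrogenase. It had 1633 and 1311 normalized reads at 24 h, against 2532 and 3807 at 6 h in ad libitum mice, and 2455 and 2588 at 24 h, against 827 and 1028 at 6 h in prefasted mice. The difference of changes was -2.53 ± 0.35 (limma adjusted p = 0.019), with both ad libitum pairs lower at 24 h and both prefasted pairs higher. It missed the threshold in 7 of 35 alternatives. Among these were the 15 doxorubicin libraries alone (limma adjusted p = 0.155). So was the set without the 4 wild-type prefasted libraries of conflicting title, where the difference was -2.42. The others were each omission of the 24 h or 6 h ad libitum knockout library, of either prefasted 24 h library and of the prefasted 6 h wild type. Omitting a library outside this comparison left the difference at -2.53, so many of the 35 could not change it. Within the comparison, the call was kept only on omission of either ad libitum wild-type library or of the prefasted 6 h knockout.

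Slc39a4 and Maoa had differences of -1.83 ± 0.32 and -1.68 ± 0.34 between feeding states, which limma did not call (adjusted p = 0.189 and 0.592) and DESeq2 did (0.000145 and 0.00255). Slc39a4 had 6990 and 8198 normalized reads at 24 h, against 4662 and 5294 at 6 h in prefasted mice. Reg3a had 5165 and 4608 at 24 h, against 2361 and 1696 at 6 h in prefasted mice, a difference of -2.53 ± 0.53 between feeding states (limma adjusted p = 0.596, DESeq2 0.000925). All prefasted pairs of these 3 genes were higher at 24 h, opposite to the ad libitum pairs.

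The median of the oxidative phosphorylation list was -0.40 in ad libitum mice and 0.03 in prefasted mice, that of the proteasome list -0.27 and -0.01, and that of the NRF2 and glutathione list -0.43 and 0.25. These list differences were not tested. The Per and PAR bZIP list had medians of -0.65 in ad libitum and -0.73 in prefasted mice, and Nfil3 had 508 and 438 normalized reads at 24 h, against 82.2 and 128 at 6 h in prefasted mice. Chil3 had 24.2 and 13.8 at 24 h, against 0 and 5.96 at 6 h in prefasted mice, and Thbs1 250 and 159 at 24 h, against 138 and 64.4 at 6 h. Pancreatic acinar markers, genes of a neighbouring organ, had a median of 4.08 in prefasted mice and 0.20 in ad libitum mice, where they summed to 1467 and 501 at 24 h, against 1379 and 527 at 6 h.

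**Figure D4:**
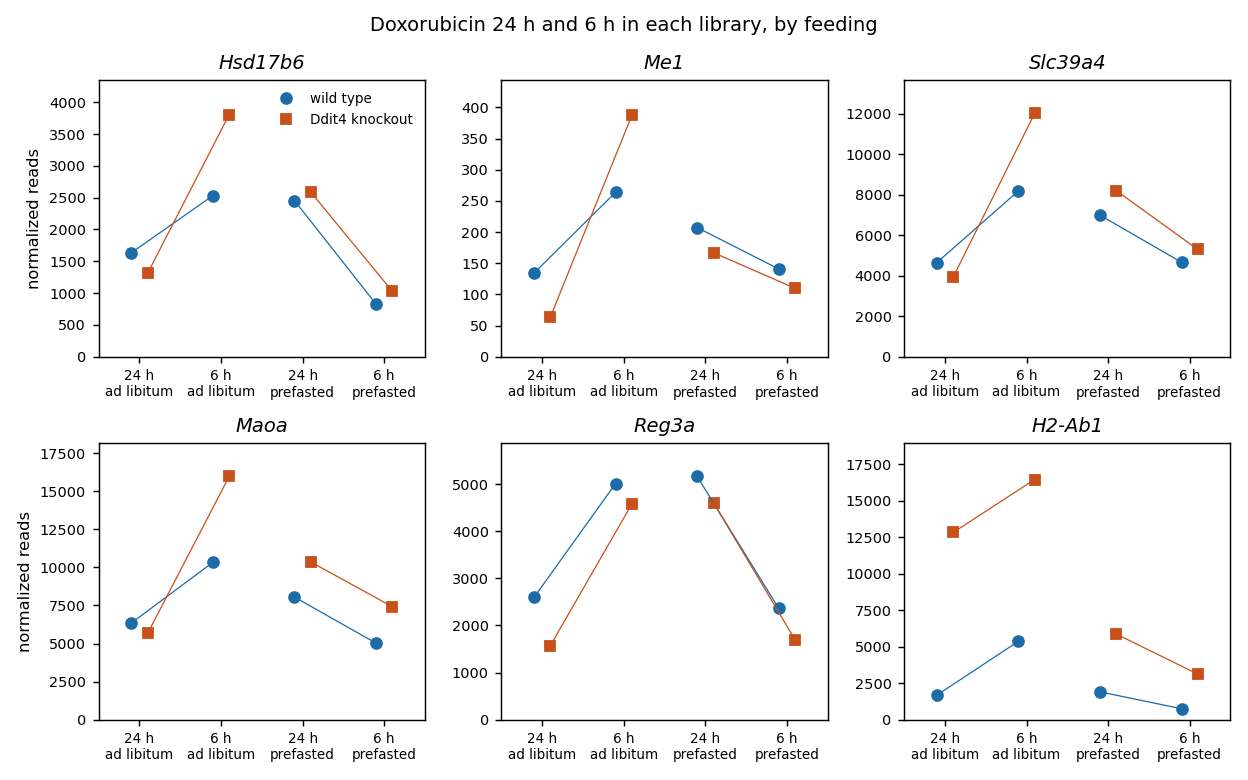
Normalized reads of 6 genes in each library, with 24 h left of 6 h for ad libitum and then prefasted mice, circles for wild type, squares for the knockout and lines joining the pair of each genotype. In all 6 genes both ad libitum lines are lower at 24 h and both prefasted lines are higher at 24 h; for Hsd17b6 the ad libitum values are 1633 and 1311 at 24 h, against 2532 and 3807 at 6 h.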

How the data were processed

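Polyadenylated RNA of whole proximal small intestine was sequenced on non-directional libraries, per the labels' protocols. Trim Galore, STAR, DESeq2 and the mm10 build are named in the submitters' processing notes, without versions. How reads were counted is not given in the sources used here. The deposited table holds a signal per gene, read counts that the authors divided by a size factor per library, since every value of a library is a whole multiple of 1 step (100% within 0.01). It lists 16259 genes in 23 libraries. The reads recovered in this way were used for edgeR and DESeq2 alone.

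Genes averaging 10 or more normalized reads across the series (11939) were tested with limma 3.58.1 (R 4.3.3, trend) on log2(value + 1), with 12 conditions and genotype as terms and 10 residual degrees of freedom, two-sided, with Benjamini-Hochberg adjustment over all genes and a threshold of 0.05. The contrasts were ad libitum 24 h minus 6 h, the same in prefasted mice, and their difference. With 1 library per genotype and time, p-values measure how much the difference between genotypes varies over the conditions. That spread mixes variation between mice, technical variation and any real difference in how the knockout responds. edgeR 4.0.16 and DESeq2 1.42.0 were alternatives, together with other pseudocounts (0.5 and 5), filters (none, and a mean of 50), scalings, sample sets and the omission of each library. The test was tested on simulated data.

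A 2-fold count is over both genotypes on the log2(value + 1) scale. "Without overlap" means that both 24 h libraries lie on 1 side of both 6 h libraries. Gene lists (63 in all, 43 reported) are described by counts and medians. The genes to name were the largest changes past the limma threshold, the members of each list with the smallest p, and a fixed set. As no gene passed, the first part named none, and genes called by DESeq2, at least 2-fold in both genotypes or among the smallest p, and further members of the lists, were chosen after their values were seen. The comparison, the members and the lists were chosen with earlier results of these data known. Promoter sequences are RefSeq's, GRCm38.p6. Results for some genes are not reported here.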

Additional observations from a re-analysis of the deposited data

Results flagged for a closer look

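The 24 h minus 6 h change of Hsd17b6 differed between ad libitum and prefasted mice by the test of the difference itself, at -2.53 on the log2 scale (limma adjusted p = 0.019).

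Among the genes named in the text, 9 others had every ad libitum pair lower at 24 h and every prefasted pair higher, and limma's test of the difference did not pass for any of them. Over all genes tested, both prefasted pairs were higher for 27.8%. The share with the full pattern was not counted, so the 9 are not read as an excess. The ad libitum change minus the prefasted change was -2.53 for Reg3a, -2.43 for Ugt2b5, -2.36 for Me1, -2.15 for H2-Ab1, -1.83 for Slc39a4, -1.68 for Maoa, -1.29 for Car2, a carbonic anhydrase, -0.98 for Per1 and -0.47 for Cdkn1a. DESeq2 called the difference for Reg3a, Ugt2b5, Slc39a4, Maoa and Car2, did not call it for H2-Ab1, Per1 or Cdkn1a, and gave no adjusted p for Me1. Car2 had 1070 and 916 normalized reads at 24 h, against 1364 and 1543 at 6 h in ad libitum mice (wild type and knockout), and 1707 and 1504 at 24 h, against 770 and 1197 at 6 h in prefasted mice. The wild-type prefasted libraries in these values carry the conflicting titles named above, and what sets the 2 feeding states apart in these genes was not tested.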

How the results depend on the processing

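The count of genes called in the ad libitum comparison was 0 higher and 0 lower except with DESeq2 (15 and 31), array weights (8 and 14), a pseudocount of 5 (2 and 0; Chil3 and Serpina3n) and the omission of 1 library, where it ranged over 0 to 0 higher and 0 to 1 lower; 21 genes were called by both DESeq2 and array weights. The prefasted count of 0 became 199 with DESeq2, 58 without the 4 libraries with conflicting titles and 0 to 134 with 1 library left out, highest without the 6 h prefasted knockout. The count of 1 for the feeding difference became 2 without a filter, 19 with DESeq2, 0 with the 15 doxorubicin libraries alone, 10 without the 4 libraries and 0 to 2 with 1 library left out. The counts of genes at least 2-fold in both genotypes, 212 higher and 87 lower, became 52 and 35 with a filter at a mean of 50, 616 and 270 with no filter, and 182 and 172 with quantile normalization, alternatives chosen after seeing the data. The fewer or more genes tested account for the filter counts by construction; the cause of the other shifts was not tested.

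Of 89 genes named, 78 kept their direction in all 36 alternatives. Many of the alternatives could not change a direction, because the difference is the mean of the wild-type and knockout differences. Leaving out libraries other than the 4, dropping the genotype term or fitting fewer conditions leaves that mean as it was. The count is therefore not a measure of robustness. Quantile normalization turned Cdkn1a to 0.0297. Leaving out 1 library turned Mki67 (-0.28 to 0.52), Top2a (-0.50 to 0.32), Ascl2 (-0.40 to 0.90), Ccng1 (-0.0353 to 0.085), Bax (-0.32 to 0.0115), Reg3g (-0.25 to 1.73), Per1 (-0.51 to 0.24), Fkbp5 (-0.23 to 3.80), Alpi (-0.0721 to 0.64) and Lyz1 (-0.35 to 0.40). Under other scalings the enterocyte median reached -0.10 in place of -0.27, and that of xenobiotic metabolism genes -0.25 in place of -0.42. Sugar metabolism genes reached -0.19 in place of -0.31, and fat absorption genes -0.17 in place of -0.30. Leaving out 1 of the 4 libraries moved the median of 36 of 43 lists by over 1.5 times. In 10 lists the median changed sign without 1 of the 4 libraries: Paneth cell, S phase, apoptosis, cholesterol synthesis, goblet cell, inflammatory cytokine, mucosal defence, neutrophil and mast cell, pancreatic acinar and ribosomal protein genes. Genes under about 10 normalized reads rest on few reads, and with 1 library per genotype and time no call here has a replicate within genotype.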

Other observations

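Of 23 fat absorption and lipoprotein genes, 14 lay below without overlap and 1 above, with a median of -0.30, close to the prefasted median of -0.28. Acsl5, a long-chain acyl-CoA synthetase, had 30690 and 28010 normalized reads at 24 h, against 41100 and 52100 at 6 h, a difference of -0.66 ± 0.24 (SE). Autophagy and lysosome genes had 12 of 23 below and 3 above, with a median of -0.21, and Ctsb, a lysosomal cathepsin, had 11630 and 13640 at 24 h, against 17830 and 18260 at 6 h (DESeq2 adjusted p = 0.0297). ATF4 stress genes had 8 of 21 tested below and 1 above, and Trib3, a pseudokinase of that response, had 416 and 498 at 24 h, against 788 and 974 at 6 h. Limma called none of these genes.

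Rarer epithelial cells gave unlike values. Of 14 tuft cell genes tested of 16, 8 lay above without overlap and 1 below, with a median of 0.48 that was 0.04 without the 6 h knockout library, and Dclk1, a tuft cell kinase, had 204 and 192 normalized reads at 24 h, against 155 and 79.8 at 6 h. Of 18 enteroendocrine genes tested of 21, 10 lay below and 1 above, with a median of -0.19, and Nts, the peptide neurotensin, had 188 and 230 at 24 h, against 255 and 663 at 6 h. FOXO and insulin pathway genes had 9 of 18 above and 1 below, with a median of 0.34, among them Pik3r1, the regulatory subunit of PI3 kinase, with 1986 and 1897 at 24 h, against 1515 and 1071 at 6 h. Ribosomal protein genes had a median of 0.08 over 37 genes and cholesterol synthesis genes one of 0.09 over 27.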
